A study of Mus musculus with 4 samples.

Results

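The Cyp2b cytochromes and the nuclear receptors that control their induction were examined in the liver of ageing male mice. The genes were chosen by name, as the probe sets annotated to a single symbol among Cyp2b9, Cyp2b10, Cyp2b13, Nr1i3, Nr1i2 and Por, and the list was drawn up with the values of this series already known. Of these 6 genes 5 were matched, by 8 probe sets, out of 18193 genes and 45101 probe sets in all. Por, which passes electrons to the microsomal cytochromes P450, is not analysed here. The animals were male C57BL/6J mice, an inbred strain, fed a low-fat diet ad libitum and aged 4, 8, 13 or 21 months. Each array carried a pool of liver RNA from 6 mice, which gives 4 groups of 1 array. There is no replicate pool, no pair of ages could be tested, and the spread between mice is unknown. The values that follow compare single pools, and the number of arrays limits their precision. No treatment, genotype or female group was measured.

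The Cyp2b enzymes are cytochromes P450 of the endoplasmic reticulum that oxidise drugs, steroids and other lipophilic compounds. Cyp2b10 is the standard target gene of CAR, the constitutive androstane receptor encoded by Nr1i3, and PXR, the pregnane X receptor encoded by Nr1i2, overlaps with CAR in its targets. Both receptors bind DNA as partners of the retinoid X receptor. Cyp2b9 and Cyp2b13 are known as genes expressed mainly in female mouse liver, where the sex difference depends on the pattern of growth hormone secretion.

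The promoters of the 3 Cyp2b genes are shown first, and the windows of Cyp2b9 and Cyp2b13 are nearly the same. Transcript and protein sequences were not compared, so likeness beyond these windows is not shown. The windows are from RefSeq on GRCm38.p6 and run from 250 bases before to 50 bases after the annotated start, all on the plus strand of chromosome 7. They lie at chr7:26173159-26173458 for Cyp2b9, chr7:26061245-26061544 for Cyp2b13 and chr7:25897408-25897707 for Cyp2b10. In the first 2, capitals mark the bases that differ between Cyp2b9 and Cyp2b13. In the Cyp2b10 window, capitals mark the 77 bases that were mismatched or not aligned to the Cyp2b9 window.
Cyp2b9: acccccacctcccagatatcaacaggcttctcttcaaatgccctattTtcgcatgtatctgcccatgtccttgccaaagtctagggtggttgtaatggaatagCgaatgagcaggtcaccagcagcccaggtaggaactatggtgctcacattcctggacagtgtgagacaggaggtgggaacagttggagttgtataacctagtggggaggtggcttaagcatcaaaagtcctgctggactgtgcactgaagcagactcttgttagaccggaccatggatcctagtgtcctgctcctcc
Cyp2b13: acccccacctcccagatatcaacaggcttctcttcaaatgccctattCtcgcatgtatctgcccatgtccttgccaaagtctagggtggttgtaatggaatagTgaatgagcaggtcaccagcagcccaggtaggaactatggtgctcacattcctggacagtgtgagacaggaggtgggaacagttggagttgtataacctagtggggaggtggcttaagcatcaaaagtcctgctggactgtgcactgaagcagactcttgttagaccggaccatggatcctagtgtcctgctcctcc
Cyp2b10: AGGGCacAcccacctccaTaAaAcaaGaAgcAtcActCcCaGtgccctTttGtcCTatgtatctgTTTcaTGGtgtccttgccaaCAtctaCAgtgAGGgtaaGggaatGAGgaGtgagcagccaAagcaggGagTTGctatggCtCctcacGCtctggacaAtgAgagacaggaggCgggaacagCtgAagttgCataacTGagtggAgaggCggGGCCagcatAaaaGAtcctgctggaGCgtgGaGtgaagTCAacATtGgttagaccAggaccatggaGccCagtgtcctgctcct

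The Cyp2b9 and Cyp2b13 windows were identical at 298 of 300 positions, or 99.3%. The substitutions from Cyp2b9 to Cyp2b13 were T48C and C104T, counted from 1 at the 5′ end of the window. The Cyp2b10 window was identical to that of Cyp2b9 at 223 of 289 aligned positions, or 77.2%, and among the 10 pairs of the 5 Cyp2b promoters listed the Cyp2b9 and Cyp2b13 pair had the highest identity. The letters AGGTCA, a half-site bound by many nuclear receptors, were found once in the Cyp2b9 window and once in that of Cyp2b13, in both at position 113 on the plus strand, and in 16.3% of 32851 promoter windows. Within this stretch Cyp2b10 had no match on either strand. The letters TTCNNNGAA (bound by STAT factors), TGTTTAC (FOXA factors) and TATAAA (the TATA box) occurred in none of the 3 windows and in 8.3%, 3.65% and 13.6% of all windows (both strands searched). A match is only a match of letters, and elements farther upstream lie outside these windows. In the order of genes along chromosome 7, Cyp2b10, Cyp2b13 and Cyp2b9 follow each other with only the pseudogenes Cyp2b28-ps, Cyp2b27-ps and Cyp2b26-ps between them among the Cyp2 genes, and Cyp2a4 comes next.

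Expression values are log2, so that 1 unit is 2-fold. The authors obtained them with RMA, a method that combines the probes of each set after background correction and normalization. Where a gene had several probe sets, the set with the highest mean stands for it. Genes whose mean over the 4 arrays reached 3.74, the median over probe sets, were kept, which left 11587 genes. Of the 5 members 4 were kept. Cyp2b13, with a mean of 3.73, was not. The array medians were between 3.72 and 3.75. The label liver was checked with 12 hepatocyte markers, of which the 10 measured had mean levels from 11.12 to 13.47. The 5 measured kidney markers, among them Umod and Slc34a1, lay between 1.89 and 4.03. Small intestine markers had means from 2.41 to 8.48, with Fabp2 the highest, and adipose tissue markers from 2.3 to 6.47, with Fabp4 the highest.

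Cyp2b9 was low at 4 and 8 months and higher at each later age. The pools gave 3.69 at 4 months, 3.56 at 8 months, 5.55 at 13 months and 7.48 at 21 months. The first 2 values were below the filter of 3.74. No background level was estimated, so signal and background could not be told apart there. RMA also compresses differences at low levels, so the fold changes from these ages are uncertain. The gene passed the filter only through its 13-month and 21-month values. At 13 vs 8 months it was higher by 1.99, or 3.97-fold, and at 21 vs 13 months by another 1.93, or 3.81-fold. Only the step from 13 to 21 months was measured above the filter on both sides, so the sizes of these steps cannot be set against each other. From 4 to 21 months the difference was 3.79, or 13.8-fold. Among the 11587 kept genes 5 were at least this much higher at 21 vs 4 months, Cyp2b9 included, and at 13 vs 4 months none was higher than Cyp2b9 with its difference of 1.86. These ranks describe why the gene was chosen and support nothing further. The single probe set of Cyp2b9 leaves no second measurement. Probe sequences were not used here, so any signal from related genes of the family is uncertain. In RNA of whole liver, more cells that express a gene and more RNA per cell cannot be told apart.

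Cyp2b13 is the copy whose promoter window differs from that of Cyp2b9 at 2 positions. Its levels were 3.59 at 4 months, 3.47 at 8 months, 3.68 at 13 months and 4.19 at 21 months, and only the last was above 3.74. At 21 months it was 0.60 above 4 months, or 1.52-fold, close to the threshold of 1.5-fold used here (0.58 on the log2 scale). Its difference at 13 vs 8 months was 0.21, against 1.99 for Cyp2b9, and at 21 vs 13 months 0.51, against 1.93. Both genes were highest at 21 months, and their order between 4 and 8 months cannot be read, since these values were below the filter. At levels this close to background the size of the Cyp2b13 difference is uncertain, and cross-hybridisation between the copies was not tested.

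**Figure D1:**
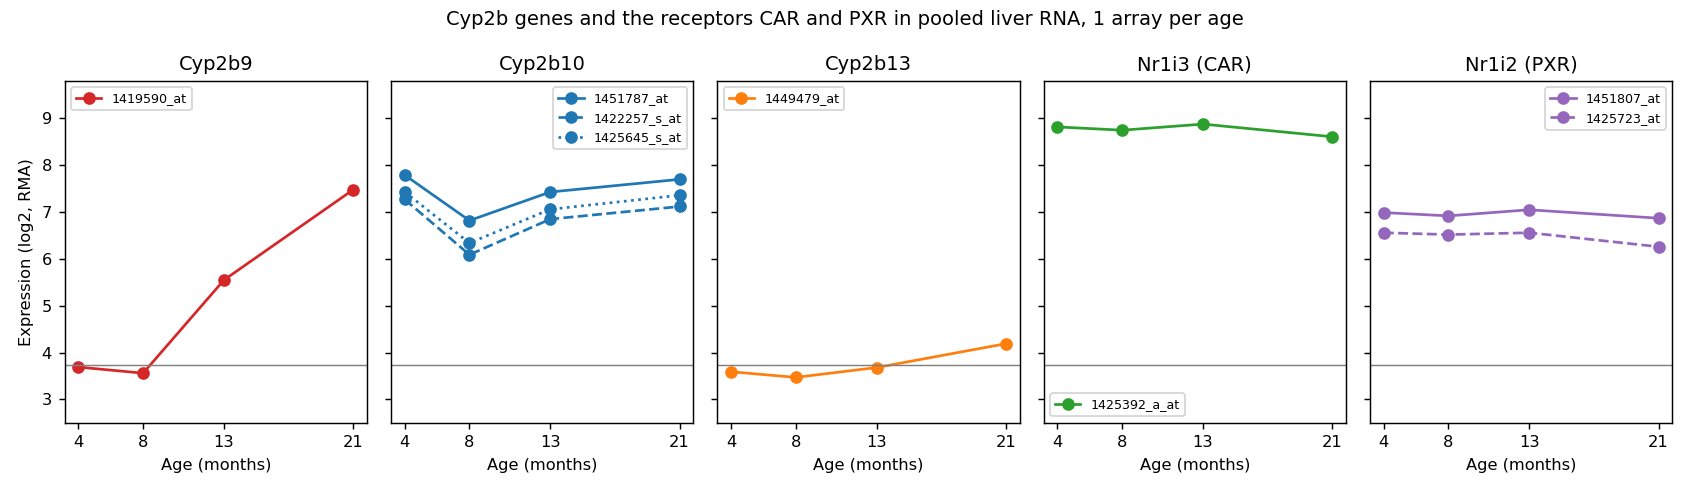
Log2 expression of the 8 probe sets of the 5 genes (y axis) against age in months (x axis), 1 point per pooled array, with the probe set that stands for the gene as a solid line and the filter of 3.74 as a grey line. Cyp2b9 goes from 3.69 to 7.48, the 3 Cyp2b10 probe sets share a dip at 8 months, and the receptors stay within 0.30 of their own levels. Levels of different probe sets are not comparable with each other.

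Cyp2b10, the gene most strongly induced by CAR, had another course. It was lowest at 8 months and back near its 4-month level at 21 months. Its leading probe set, 1451787_at, gave 7.79, 6.82, 7.43 and 7.70 at 4, 8, 13 and 21 months. At 8 vs 4 months it was lower, with a difference of -0.97, or 1.96-fold, at 13 vs 8 months higher by 0.61, or 1.53-fold, and at 21 vs 4 months the difference was -0.09. Both steps share the 8-month array. Here, unlike for Cyp2b9, all values lay well above the filter.

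Cyp2b10 was also the only member with 3 probe sets, and all 3 put the ages in the same order, 8, 13, 21 and 4 months from low to high. Probe set 1425645_s_at gave 7.43, 6.34, 7.06 and 7.36, and probe set 1422257_s_at gave 7.27, 6.09, 6.85 and 7.12. Their differences at 8 vs 4 months were -1.09 and -1.18, both past 2-fold where the leading set was just short of it. The ending _s_at marks probe sets whose probes match several transcripts, so these 2 may share signal with related genes. The 3 sets were read from the same 4 pools and repeat the measurement, not the experiment. Of the kept genes 9 were at least 1.5-fold lower at 8 months than at every other age, which is 0.0777%. The others beside Cyp2b10 were Clec4a3, Ddit4, Fpr2, Gbp2b, Gbp7, Hcls1, Marco and Usp18, several of them genes of macrophages or of the interferon response, a selection made after the values were seen.

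The receptors differed little between the ages. Nr1i3, which encodes CAR, was at 8.82, 8.75, 8.88 and 8.61. Nr1i2, which encodes PXR, was at 6.99, 6.92, 7.05 and 6.87 by its leading probe set, 1451807_at, and at 6.56, 6.52, 6.56 and 6.26 by the other, 1425723_at. All 3 probe sets were lowest at 21 months, and their differences at 21 vs 13 months were -0.27, -0.18 and -0.30. In that comparison 15.5% of the kept genes differed by at least as much as Nr1i3 in either direction, and 30.4% by at least as much as the leading Nr1i2 set. These shares describe the spread over genes, not the error of a single gene. At 8 vs 4 months, where Cyp2b10 differed by -0.97, both Nr1i3 and the leading Nr1i2 set differed by -0.07. At 13 vs 8 months, with Cyp2b9 higher by 1.99, both were higher by 0.13. The arrays measure the receptors' mRNA. Their activity and location in the cell, by which CAR is largely regulated, were not measured.

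Counts of members past 1.5-fold are set beside the same share of all kept genes, though the genes were chosen for these values and nothing is read from the comparison. At 8 vs 4 months 1 of 4 kept members was lower (Cyp2b10), against 0.354% of the kept genes, and none was higher (0.501%). At 13 vs 8 months 2 of 4 were higher (Cyp2b9 and Cyp2b10; all genes 0.716%) and none was lower (0.362%). At 21 vs 13 months Cyp2b9 alone was higher, 1 of 4 (1.47%), and none was lower (0.457%). At 21 vs 4 months it was again 1 of 4 (2.11%), with none lower (0.423%). Beside these, 1 of 4 was higher at 13 vs 4 months (0.837%) and 2 of 4 at 21 vs 8 months (2.66%), Cyp2b9 and Cyp2b10. Cyp2b13 would add to the count at 21 vs 4 months and at 21 vs 8 months if the filter were dropped. None of the 4 was lower at 21 vs 8 months (0.699%) or at 13 vs 4 months (0.457%).

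At the stricter threshold of 2-fold Cyp2b9 was the 1 kept member higher in 5 of the 6 comparisons, and no kept member was lower in any. The shares of all kept genes at least 2-fold higher were 0.129% at 13 vs 8 months, 0.311% at 21 vs 13, 0.561% at 21 vs 4, 0.181% at 13 vs 4 and 0.941% at 21 vs 8. No kept member was past it at 8 vs 4 months, with 0.104% of genes higher and 0.0259% lower. The shares lower in the other comparisons were 0.0777%, 0.0518%, 0.0345%, 0.0518% and 0.129% in the same order. Over the 4 ages 2 of 4 kept members, Cyp2b9 and Cyp2b10, had a range of at least 1.5-fold (5.42% of genes). Cyp2b10 was lowest at 8 months (26.2%), while the lowest age of Cyp2b9 cannot be read below the filter, and 1, Cyp2b9, was highest at 21 months (30.3%).

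**Figure D2:**
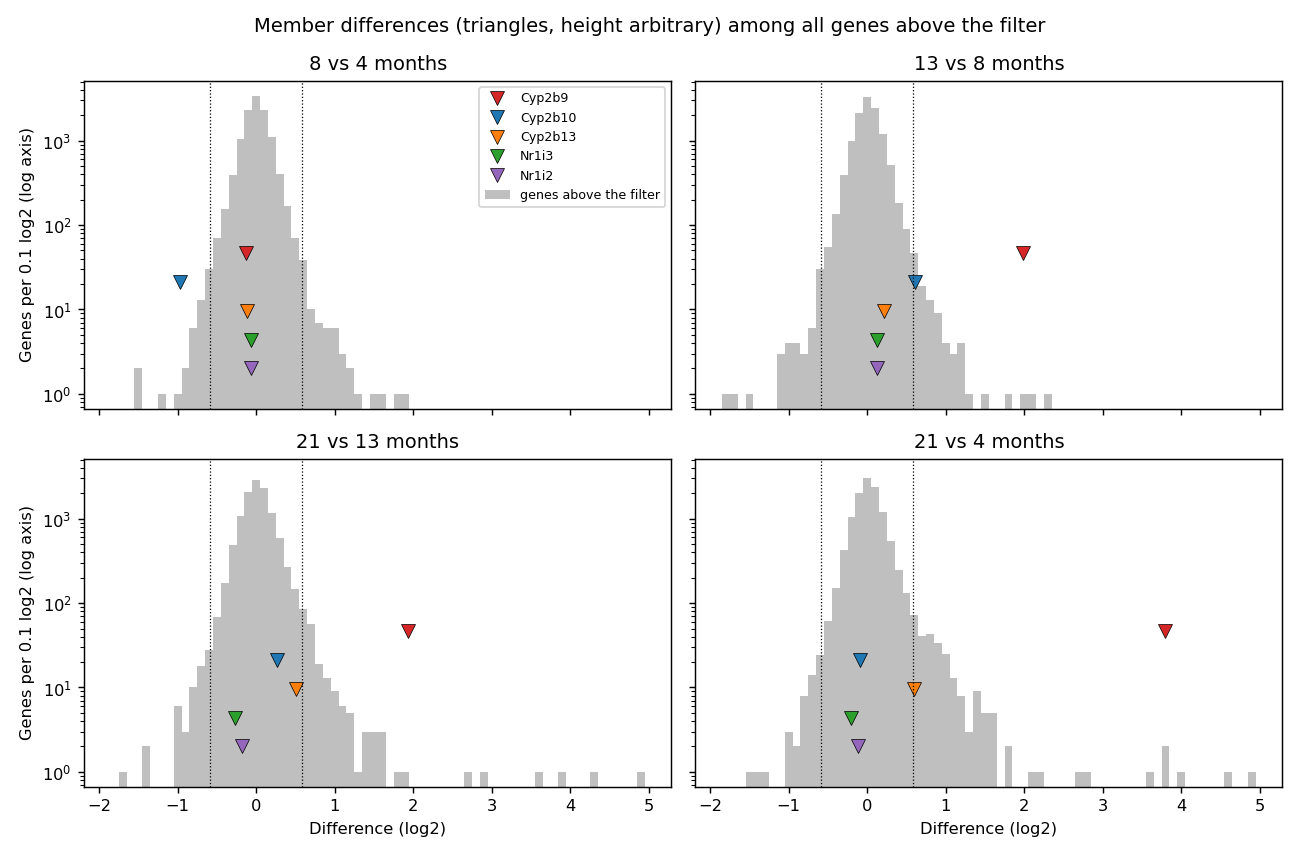
Number of kept genes per 0.1 of log2 difference (y axis, log scale; grey bars) against the log2 difference (x axis) in 4 comparisons of ages, with a triangle at the value of each of the 5 genes and dotted lines at 1.5-fold. Cyp2b9 lies at 1.99, 1.93 and 3.79 in the last 3 panels, Cyp2b10 at -0.97 in the first, and the receptors within the bulk of the genes throughout.

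Other targets of CAR and PXR were mostly slightly lower at 8 than at 4 months and close to their 4-month levels at 21 months. Of 40 listed targets 32 were kept. At 8 vs 4 months 23 were lower and 8 higher, with a median of -0.10 (all kept genes 0.00). The 2 past 1.5-fold were Slco1a4, an organic anion transporter induced through PXR, at -0.69 and the glutathione transferase Gstm3 at -0.68. Cyp2c55, another gene induced through CAR, was at 6.39, 5.86, 6.22 and 6.42, a smaller dip with its lowest value at 8 months as for Cyp2b10. At 13 vs 8 months 25 were higher and 6 lower, none past 1.5-fold, with a median of 0.10 (0.01). At 21 vs 13 months 14 were higher and 18 lower, with a median of -0.02 (0.01) and 1 past 1.5-fold, Gstm3, higher by 0.59. At 21 vs 4 months 18 were higher and 14 lower, the median was 0.01, the same as for all kept genes, and 1 was past 1.5-fold, the fatty acid transporter Cd36, higher by 0.62 (0.57 after quantile normalization, short of the threshold). Cyp3a11, the standard target of PXR, was at 13.12, 13.04, 12.99 and 12.94, near the top of the range of the arrays, where differences are compressed. The slightly lower values at 8 vs 4 months were not particular to these targets. Among the 30 other kept cytochromes P450 of families 1 to 3, some of them also targets, 21 were lower and 9 higher, with a median of -0.07. Among 18 kept genes of electron transfer and heme 14 were lower and 4 higher, also with a median of -0.07.

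Most genes of proteins that work with the receptors differed little between the ages, with Egfr and Nr0b2 as exceptions. Of 30 listed partners and regulators 23 were kept, and at 21 vs 4 months 10 were higher and 10 lower, with a median of 0.00 (all kept genes 0.01). The 1 past 1.5-fold was Egfr, the epidermal growth factor receptor whose signalling holds CAR inactive, at 9.27, 9.60, 8.94 and 10.08. It was higher by 0.81 at 21 vs 4 months, but only by 0.16 when its probe sets were averaged. Egfr and the repressor Nr0b2 were the 2 partners past 1.5-fold at 13 vs 8 months, with differences of -0.66 and -0.87. They were also the 2 at 21 vs 13 months, higher by 1.14 and 1.05, both past 2-fold. Nr0b2 was at 8.93, 8.67, 7.80 and 8.85, and its difference at 13 vs 4 months was -1.13, also past 2-fold. None of the 23 was past it at 8 vs 4 months, where the coactivator Ppargc1a came nearest at -0.58. Rxra, the retinoid X receptor partner, was at 8.60, 8.57, 8.69 and 8.74.

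Among the 30 other kept cytochromes P450 of families 1 to 3, none was past 1.5-fold in any step between successive ages or at 21 vs 4 months. At 21 vs 8 months 2 of the 30 were, Cyp3a13, higher by 0.68, and Cyp2c39, higher by 0.61. Cyp3a13 was higher by 0.47 and Cyp2d13 differed by -0.33 at 21 vs 4 months, and the median was -0.03 (all kept genes 0.01). Of 10 further genes of the Cyp2 cluster on chromosome 7, which surround the Cyp2b genes, 5 were measured and 3 kept. Cyp2a12 was at 11.11, 11.12, 11.14 and 11.12 and Cyp2f2 at 12.28, 12.24, 12.21 and 12.17, both level. Cyp2g1 was at 5.12, 4.55, 5.07 and 5.12, lowest at 8 months like Cyp2b10, with a difference of -0.57 at 8 vs 4 months, a gene named after its values were seen. Cyp2b19, a family member of skin, was below the filter at every age, from 1.78 to 2.01. Genes of electron transfer to P450 and of heme, the P450 cofactor, had 18 of 20 members kept, none of them past 1.5-fold at 21 vs 4 months, and a median of 0.01. Hmox1, which breaks down heme, was higher by 0.36, and Alas1, the rate-limiting enzyme of heme synthesis, by 0.25.

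**Figure D3:**
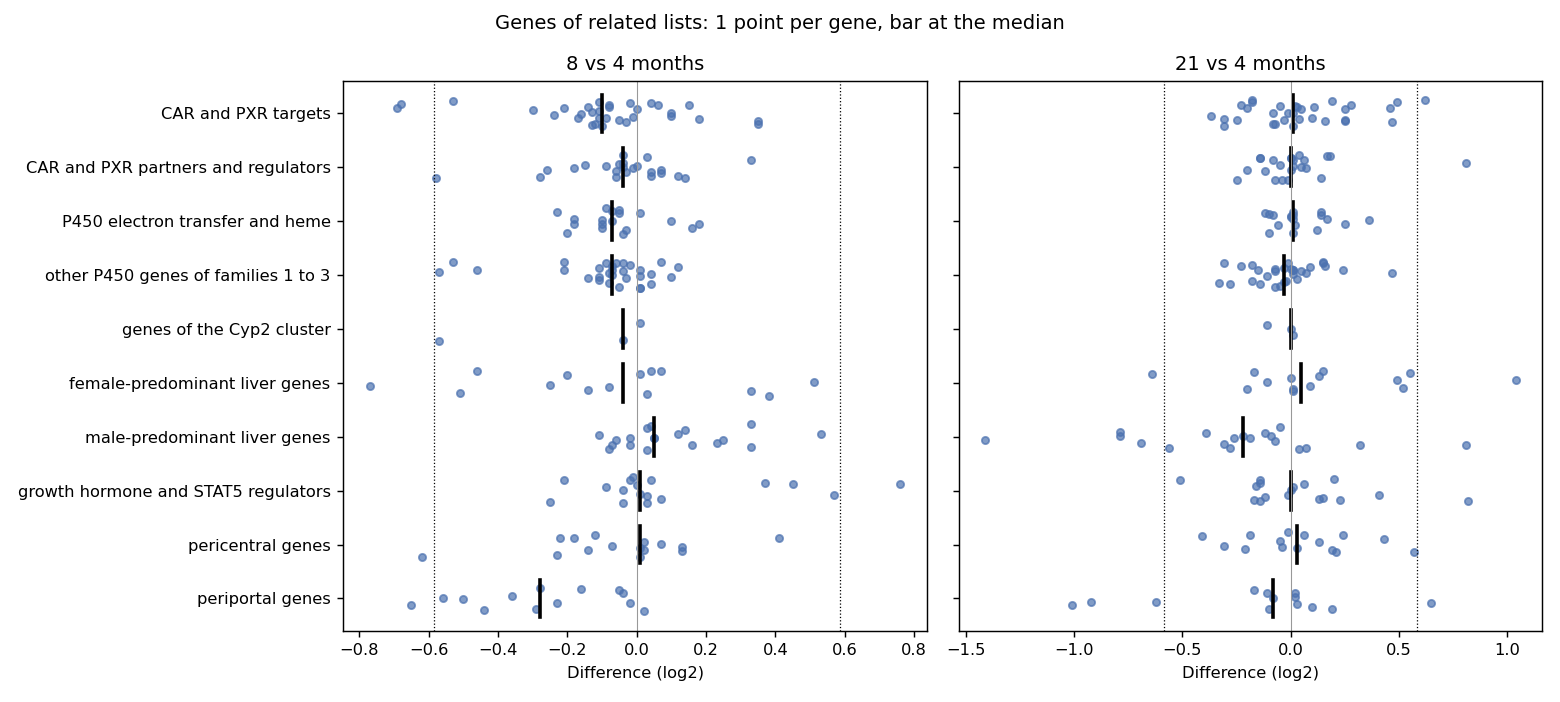
Log2 difference (x axis) of each kept gene of 10 lists (rows; 1 point per gene, vertical position within a row arbitrary) at 8 vs 4 months and 21 vs 4 months, with a bar at each list's median and dotted lines at 1.5-fold. At 8 vs 4 months CAR and PXR targets centre on -0.10 and other P450 genes on -0.07. At 21 vs 4 months the targets centre on 0.01 and male-predominant genes on -0.22.

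Because Cyp2b9 and Cyp2b13 are female-predominant, genes with a sex difference in mouse liver were set beside them. Of 27 other female-predominant genes 14 were kept, and at 21 vs 4 months 9 were higher and 4 lower, with a median of 0.05 (all kept genes 0.01). Slc22a26, an organic anion transporter, was higher by 1.04, with levels of 3.91, 4.24, 4.35 and 4.95, and the acyl-CoA thioesterase Acot3 differed by -0.64. Slc22a26 and Acot3 were the 2 past 1.5-fold. Of 24 male-predominant genes 19 were kept, and at 21 vs 4 months 4 were higher and 15 lower, with a median of -0.22. Of these, 4 were at least 1.5-fold lower. Ugt2b38, a glucuronosyltransferase, differed by -1.41, Slco1a1, an organic anion transporter, by -0.79, Hsd3b5, which acts on steroids, by -0.79 and Elovl3, a fatty acid elongase, by -0.69. Egfr, which is also on this list, was the 1 gene at least 1.5-fold higher, a difference of 0.81 that came to 0.16 when its probe sets were averaged. At 13 vs 8 months, the first step at which Cyp2b9 was higher, the male-predominant median was -0.18, with 16 of 19 lower. It was 0.05 at 8 vs 4 months. Both lists were drawn up with results of these arrays known, so their direction is not independent evidence.

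Regulators of the growth hormone and STAT5 pathway, which sets these sex differences, differed in both directions between single ages. Of 20 listed 17 were kept, 8 were higher and 8 lower at 21 vs 4 months, and the median was 0.00. Esr1, the estrogen receptor alpha, was past 1.5-fold, at 6.83 at 4 months and 7.65 at 21 months, higher by 0.82. At 21 vs 13 months 3 of 17 were past 1.5-fold higher and 3 lower. The other values named here were chosen after they were seen. Onecut1, a hepatocyte transcription factor, was at 5.39, 6.15, 6.28 and 5.23, and Socs2, a STAT5 target, at 7.67, 8.24, 8.62 and 7.82. Esr1 was higher by 0.38 at 13 vs 8 months and by 0.65 at 21 vs 13 months. Stat5b, which encodes a STAT5 protein, was higher by 0.14 and 0.34 at these steps by its leading probe set. At 21 vs 4 months Stat5b was higher by 0.23 with that set, but at -0.01 when its probe sets were averaged. Cyp2b9 was also higher at 13 vs 8 and at 21 vs 13 months, but most of the kept regulators were not higher at both. Bcl6, with the widest range among them, differed by -1.11 at 13 vs 8 months and was higher by 1.2 at 21 vs 13 months. Onecut1 and Socs2 were higher at the first of these steps and lower at the second. A link between these regulators and Cyp2b9 was not tested.

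Position in the liver lobule was covered by 2 lists, since CAR target genes are expressed most strongly around the central vein. At 21 vs 4 months the 15 pericentral genes had a median of 0.03, with Slc13a3, a dicarboxylate transporter, higher by 0.57 and the ammonium transporter Rhbg by 0.43, neither past 1.5-fold. After median centring Slc13a3 was at 0.60, past the threshold. It was short of it at 0.36 when its probe sets were averaged, 0.54 after quantile normalization and 0.56 after cyclic loess. The 13 kept periportal genes had a median of -0.08 at 21 vs 4 months, with the steroid dehydrogenase Hsd17b6 at -1.01, the adhesion gene Cdh1 at -0.92, Sult5a1 at -0.62 and the cathepsin gene Ctsc higher by 0.65 (0.47 when its probe sets were averaged, short of 1.5-fold). At 8 vs 4 months, when Cyp2b10 was low, 12 of the 13 periportal genes were lower too, with a median of -0.28, against 5641 of all 11587 kept genes and a median of 0.00, and the pericentral median was 0.01.

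The genes closest in course to each Cyp2b gene were sought among 626 kept genes with a range of at least 1.5-fold, by the root mean square distance between profiles centred on their own means over the 4 arrays. For Cyp2b9 the nearest were the metallothionein Mt2 at a distance of 0.675, the acute phase gene Orm2 at 0.676 and Ighm, the immunoglobulin mu chain, at 0.724. Mt2 was at 8.37, 8.01, 8.96 and 10.56, with its largest step after 13 months. Without the 8-month array Cidea, a lipid droplet gene, was the nearest at 0.40, followed by Ighm at 0.414 and Mt2 at 0.690. These distances include Cyp2b9 values below the filter. For Cyp2b10 the nearest were Lyve1, a hyaluronan receptor of sinusoidal endothelium, at 0.054, the hepcidin gene Hamp2 at 0.078 and Ip6k2, an inositol phosphate kinase, at 0.121. Lyve1 was at 6.81, 5.89, 6.36 and 6.66. For Cyp2b13 they were Pilrb1 at 0.007, Tmem176b at 0.013 and the interferon-induced gene Ifitm3 at 0.024. Cyp2b13 was above the filter only at 21 months and its range was 0.72. Its short distances therefore rest largely on values near background and are not a sign of a closer match. With 4 arrays many genes share a course, and these distances are descriptions.

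**Figure D4:**
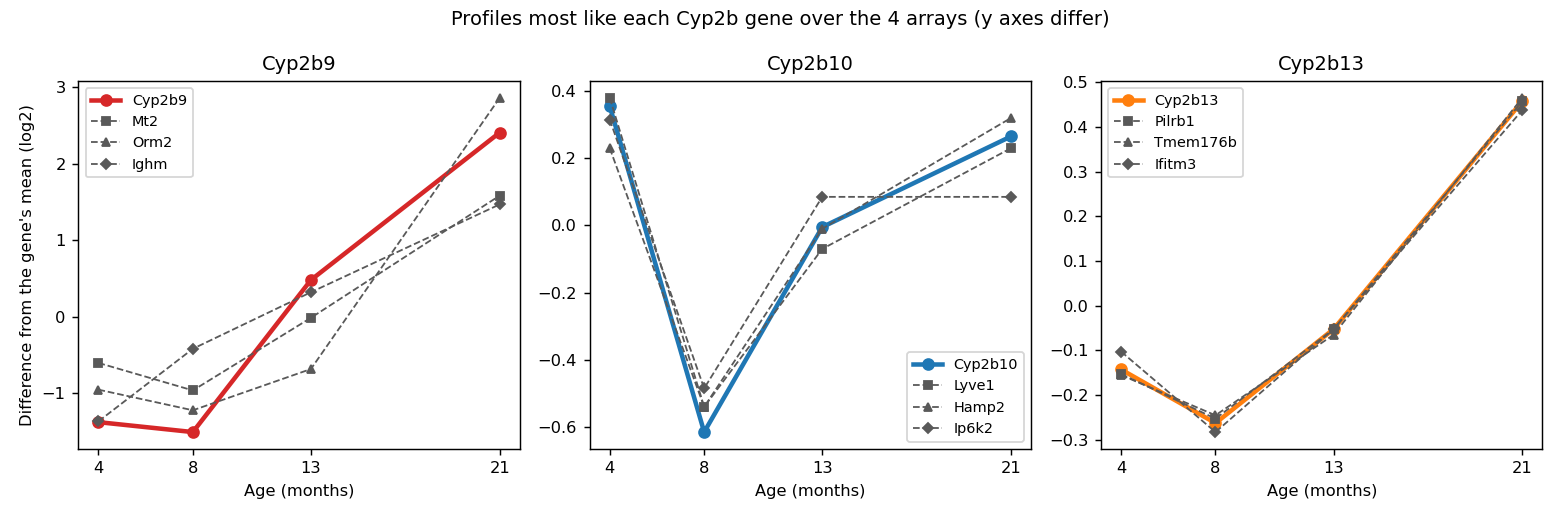
Log2 difference from the gene's own mean (y axis, scale differing between panels) against age in months (x axis) for Cyp2b9, Cyp2b10 and Cyp2b13 (thick lines) and the 3 genes nearest to each (dashed lines), 1 point per array. The genes nearest to Cyp2b10 share its low value at 8 months, and those nearest to Cyp2b9 lie at distances of 0.675 to 0.724 from it.

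Markers of other liver cells also differed between the ages. All 12 macrophage markers were lower at 8 than at 4 months, with a median of -0.43, and all 12 were higher at 21 than at 4 months, with a median of 0.72. The log2 of their summed linear values was 11.61, 11.17, 11.70 and 12.38, low at 8 months as Cyp2b10 was and high at 21 months as Cyp2b9 was. Mpeg1, Cd5l and Timd4, genes of macrophages and Kupffer cells, were higher by 1.39, 1.03 and 0.98 at 21 vs 4 months. The summed lymphocyte markers were at 7.90, 8.08, 8.42 and 9.29, with Ighm higher by 2.84 (0.48 when its probe sets were averaged), Jchain by 1.58 and Ptprc by 0.65 (0.35 when averaged in the same way, short of 1.5-fold). The other kept lymphocyte markers, Cd3e and Cd79b, differed by -0.09 and 0.19. The 10 hepatocyte markers summed to between 15.96 and 16.01 and had a median of -0.03 at 21 vs 4 months. Stellate cell markers had a median of 0.17 (7 kept), sinusoidal endothelium 0.07 (8 kept) and bile duct 0.15 (3 kept), each with none past 1.5-fold at 21 vs 4 months. Adipose tissue had a median of 0.10 and small intestine 0.04, also with none past 1.5-fold. Each of these 2 lists had only 2 kept markers, 1 higher and 1 lower at 21 vs 4 months. Kap was the only kidney marker above the filter, and differed by 0.02. The summed bile duct markers were at 7.13 at 8 months against 6.02 to 6.14 at the other ages, through Cd24a at 6.05 and Krt19 at 4.99, which was not kept. The other kept bile duct markers, Epcam and Sox9, were highest at 21 months. The part of these cell types in the Cyp2b values was not tested.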

How the data were processed

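Liver RNA of 4 ages was measured on 4 oligonucleotide arrays, 1 per age, grouped by the labelled age. The deposited values are log2 expression of 45101 probe sets, from 1.22 to 13.7 with 2 decimals, made by the authors with RMA, per the submitters' processing notes. The RMA version is not given in the sources used. Since RMA equalises the arrays' distributions, a shift shared by most genes cannot be seen.

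Gene symbols came from the platform annotation. Leaving out 64 control sets, 34945 had 1 symbol, 932 several and 9160 none or were not listed, and only those with 1 symbol were used. No test or p-value was computed. Genes and lists were chosen with earlier results of these data known. The 10 gene lists and 9 marker lists were described by counts past 1.5-fold and by medians. Named from each list were up to 4 genes past 1.5-fold at 21 vs 4 months with the largest differences, or else the 2 largest, up to 3 per marker list, and the 3 genes nearest each member. Others were chosen after their values were seen.

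Alternatives were the mean over probe sets, each other probe set, median centring, quantile normalization, cyclic loess, a filter at the 75th percentile (5.72) or none, a threshold of 2-fold, and nearest genes without the 8-month array. The counting and nearest-gene steps were tested on simulated data. Promoters were aligned with biopython 1.88 and the alternative normalizations made with limma 3.58.1 in R 4.3.3. All else used Python 3.11.15 with pandas 2.3.3.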

Additional observations from a re-analysis of the deposited data

How the results depend on the processing

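Other normalizations moved the 30 member differences by at most 0.09, and none of the member differences past 1.5-fold changed sign under the alternatives run. Over its 4 alternatives the Cyp2b9 difference at 21 vs 4 months was between 3.76 and 3.82, and over its 6 that of Cyp2b10 at 8 vs 4 months was between -1.18 and -0.95. For Cyp2b9 the mean over probe sets could not differ, since it has a single probe set, and the other settings rescale the same arrays. Its narrow range therefore does not cover the spread between pools or the uncertainty of a 4-month value below the filter. Of 138 values of member differences under an alternative, 4 moved by more than the spread over genes, all with another probe set. With 1422257_s_at Cyp2b10 was at -1.18 for 8 vs 4 months and higher by 0.76 for 13 vs 8, and with 1425723_at Nr1i2 was at -0.30 for 21 vs 4 months and -0.26 for 21 vs 8.

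Counts of members moved with the filter and threshold, as such small counts do. With no filter 2 members were higher at 21 vs 4 months. With the filter at the 75th percentile, which leaves out Cyp2b9, 0 were higher at 21 vs 13, 21 vs 4 and 13 vs 4 months and 1 at 13 vs 8 and at 21 vs 8 months. At 2-fold 0 were lower at 8 vs 4 months and 1 was higher at 13 vs 8 and at 21 vs 8 months.

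Numbers of list genes past the threshold at 21 vs 4 months moved too. No list median moved by more than the spread over single genes, 0.15, which is a wide bar for medians this small. The female-predominant median of 0.05 was 0.00 when probe sets were averaged and -0.06 with the filter at the 75th percentile, so its sign is not settled. Partners and regulators had 0 with the mean over probe sets and 0 at 2-fold, targets 0 after quantile normalization and 0 at 2-fold, pericentral genes 1 after median centring, and growth hormone regulators 0 at 2-fold. Female-predominant genes had 4 with no filter (the 2 added, Slc22a27 and Sult3a1, were below 3.74 at every age), 1 with the filter at the 75th percentile and 1 at 2-fold, male-predominant genes 1 and periportal genes 1 at 2-fold. Without the 8-month array 1 of the 3 genes nearest Cyp2b10 stayed among its nearest 3, and 2 of the 3 nearest Cyp2b9. The cause of these moves was not tested, beyond the genes that a filter or threshold leaves out. No paired analysis was possible because each age has 1 array. No replicate could be left out for the same reason. The filter of 3.74 is a median over probe sets, not a measured background level. Values near it and below could not be told from background here.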
